A study of Mus musculus with 9 samples.

Results

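The genes of the translation initiation factors (Eif names) and elongation factors (Eef names) were followed through a RIP-seq experiment on mouse liver. RIP-seq is RNA immunoprecipitation, in which a protein is pulled down with an antibody and the RNA held with it is sequenced. The members were all gene names of the deposited exon table that begin with Eif or Eef and a digit. Of 74 such names, 7 pseudogene names that contain -ps and 1 gene on chromosome Y were left out, which gave 66 members of 33732 gene names. The groups were HuR RIP (3 anti-HuR pull-downs), IgG RIP (3 control pull-downs) and Input (3 samples of lysate RNA). All were from whole healthy liver of wild-type C57BL/6 mice aged 8 weeks, with no transgene, deletion or drug named for any group. RIP was done under native conditions with 1 liver per pull-down, per the labels' protocols. The series asks which RNAs HuR targets in this tissue. Input was given only as the authors' mean of its libraries, so it has no spread of its own.

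HuR (gene Elavl1) recognises runs of U and AU-rich sequence, mostly in introns and 3′ untranslated regions (3′ UTRs), and is known for effects on the stability and translation of mRNAs. Initiation factors bring the small ribosomal subunit with the initiator tRNA to the cap of an mRNA, scan for the start codon and join the subunits, and elongation factors then carry aminoacyl-tRNAs in and move the ribosome along. Hepatocytes translate large amounts of secreted protein, and phosphorylation of eIF2 and of the 4E-binding proteins are textbook controls of that translation.

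Levels are given as RPKM (reads per kilobase of exon and mega of reads), summed over the exons of a gene, and the values of a group follow its libraries in the order 1, 2, 3. The library sizes behind them were 26.6, 26.3 and 26.9 M reads with HuR, and 15.9, 26.7 and 28.8 M reads with IgG (M, mega). The share of those reads in listed exons ranged over 27.9% to 60.5% with HuR and over 44.3% to 54.0% with IgG. Elavl1 RNA itself was at 0.950, 0.304 and 0.990 RPKM with HuR and at 0.523, 0.0253 and 0.0134 RPKM with IgG. The column names carry the letter M for the libraries numbered 1 and 2 and F for those numbered 3. Xist, the RNA of the inactive X chromosome, was at 10.2 RPKM in HuR 2 and 0.463 RPKM in HuR 3, while Ddx3y, a gene of chromosome Y, was at 0.0188 RPKM in HuR 2 and 2.04 RPKM in HuR 3. Read as male and female, the letters of those 2 libraries go against these levels, and the authors' fold columns also list them in exchanged order. Both are HuR libraries, so the exchange changes their numbers and not the groups. Defining genes of the liver were present: the summed level of 8 hepatocyte markers was 995, 1059 and 892 RPKM with HuR, 843, 316 and 690 RPKM with IgG and 860 RPKM in the Input mean. In bulk tissue, fewer cells of a type and less RNA per cell cannot be told apart.

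No translation factor passed the test of HuR against IgG in either direction. limma was fitted on log2(RPKM + 0.5) over all genes at 0.5 RPKM or more in at least 3 of the 6 pull-down libraries, with two-sided p-values adjusted by Benjamini-Hochberg and a threshold of 0.05. Of the 66 members, 28 met that filter and 38 did not. Among the 28, 0 were called higher with HuR, beside 37 of 5510 genes (0.672%), and 0 were called lower, beside 7 genes (0.127%). At an unadjusted p under 0.05, limma gave 6 members higher (21.4%), beside 27.9% of all tested genes, and 0 lower, beside 3.19%. The count over all genes turned on single libraries: it was 15, 90 and 72 higher and 5, 13 and 15 lower without HuR 1, 2 and 3, and 724, 0 and 41 higher and 17, 0 and 35 lower without IgG 1, 2 and 3. The number of members called under these omissions was 0, except that 1 was called higher without IgG 1.

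Translation factors followed the general shift of the HuR libraries. The median log2 fold change of the 28 tested members was 0.85, beside 0.92 over all tested genes, and 14 of the 28 lay above that median. Without IgG 1 the members' median was 1.35, beside 1.24 over all genes. With each library centred at its median the members' median was -0.25, beside -0.18 over all genes, and with TMM-like scaling (between libraries, by trimmed means) it was 0.064, beside 0.30 over all genes. A positive log2 change was seen in 22 of the 28 (78.6%), beside 79.1% of all tested genes. All 3 HuR libraries lay above all 3 IgG libraries for 8 of the 28 (28.6%), beside 31.3% of all tested genes, and the reverse held for 0 of the 28, beside 3.48%. Changes on this scale understate those of genes at low level.

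**Figure D1:**
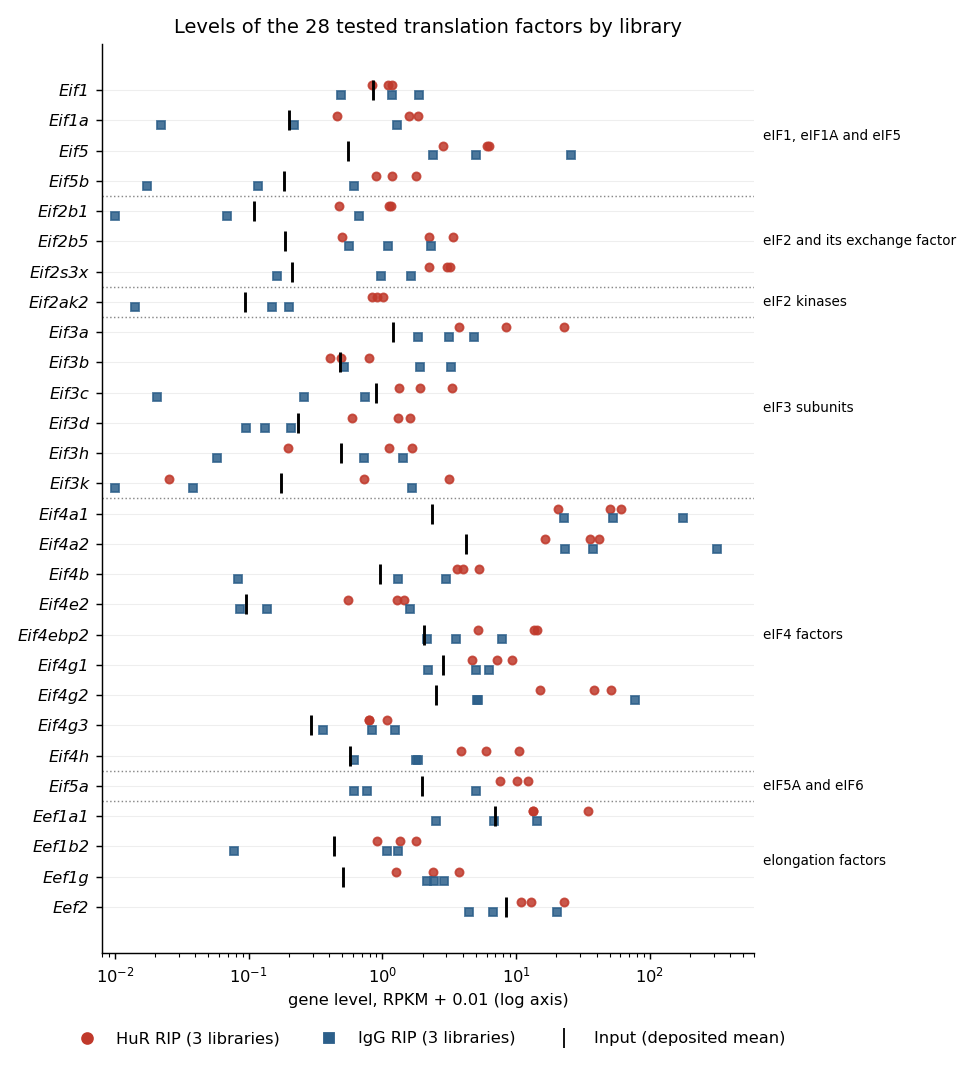
Level of each of the 28 tested translation factors in RPKM (plus 0.01, log axis), with a circle for each HuR RIP library, a square for each IgG RIP library and a bar for the deposited Input mean; genes are grouped by role. HuR libraries lie right of all IgG libraries for 8 genes, among them Eif5a, Eif4h and Eif2ak2, and the IgG libraries of Eif4a1, Eif4a2 and Eif5 reach the highest levels of those genes.

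The member with the largest change was Eif5a (chromosome 11, 69916714 to 69921958, minus strand, mm10), whose protein carries hypusine and helps ribosomes through stalling sequences. It had 7.57, 10.1 and 12.3 RPKM with HuR, against 5.03, 0.599 and 0.753 RPKM with IgG, with 1.96 RPKM in the Input mean. Every HuR library was above every IgG library, and IgG 1 was several times above the other two IgG libraries. The log2 fold change was 2.39 (SE 0.83), which missed the threshold (limma adjusted p = 0.0858). It passed without IgG 1 (log2 fold change 3.14, adjusted p = 0.0427), with exons over small RNA genes left out (adjusted p = 0.0450) and among protein-coding genes only (adjusted p = 0.0268). Over all tested genes, those settings called 724 of 5510, 464 of 4751 and 728 of 3943 higher, in the same order. Each of them called 1 of the 28 tested members higher. Over the settings tried, the log2 change of Eif5a stayed positive. The table also lists the pseudogene Eif5al3-ps at 1.597, 4.84 and 5.49 RPKM with HuR and at 0, 0 and 10.8 RPKM with IgG, and reads of near-identical copies may have been split between such genes.

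Most Eif5a reads came from its 3′ end in every HuR library. The exon block 69916714 to 69917501, which holds the last exon, took 95.2%, 93.7% and 95.3% of the gene's reads with HuR, against 89.7%, 96.9% and 11.04% with IgG. An exon block is a run of overlapping listed exons, and this look at blocks was chosen after the gene values were seen. IgG 3 stood apart, with 86.8% of its Eif5a reads in another block, 69921163 to 69921386.

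The T-richest 30 bases of the 3′ UTR are shown for 8 tested members that are described here by the reads of their last exon. They were chosen after their values were seen, and other members with many reads there are not shown. They come from the longest GENCODE M21 transcript (GRCm38, the assembly also called mm10) and are written 5′ to 3′ in DNA letters. Capitals mark matches to 3 motifs, which are the run of T written TTTTTTT, the AU-rich form given in DNA letters as TTTATTT and the short AU-rich form ATTTA.
Eif5a, chr11:69917215-69917244, minus strand: ATTTATTTgacgtTTTATTTtggttttcct
Eif4h, chr5:134621283-134621312, minus strand: tgttttgtgctttctttctgttttctttct
Eif4b, chr15:102097115-102097144, plus strand: atcctttgggttgagggTTTTTTTgttttt
Eif4ebp2, chr10:61431822-61431851, minus strand: tTTTATTTctctgttaaatgtatctgtact
Eif4g3, chr4:138206388-138206417, plus strand: aaatattttctgttttaatcttttcttttt
Eif2ak2, chr17:78854472-78854501, minus strand: tgcaatagggTTTTTTTTTTcctgttactt
Eif2s3x, chrX:94188813-94188842, minus strand: TTTTTTTTgtttgtttgtttgtttgttttt
Eif5, chr12:111545352-111545381, plus strand: tattttgtgtgtgtttagtggttgctttgt
The window of Eif5a holds both AU-rich forms and that of Eif4ebp2 holds TTTATTT. Those of Eif4b, Eif2ak2 and Eif2s3x hold a run of T, and those of Eif4h, Eif4g3 and Eif5 hold none of the 3 motifs. Elsewhere in their 3′ UTRs there are matches, with ATTTA 2 times in Eif4h, 7 times in Eif4g3 and 7 times in Eif5. The 3′ UTR of Eif4g3 also holds TTTTTTT 2 times, with overlaps counted, and TTTATTT 1 time. Searched on the sense strand of the whole 3′ UTR, with overlaps between motifs allowed, TTTTTTT was in 14 of the 28 tested members (50.0%), beside 46.8% of 3920 tested genes with a 3′ UTR. TTTATTT was in 32.1% of the members, beside 41.5%, and ATTTA in 75.0%, beside 68.8%. The median 3′ UTR was 919 bases in the members and 1204.5 bases in all tested genes, so the shares are over unlike lengths.

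Among the eIF4 factors, which bind the cap and unwind the 5′ end of an mRNA, 9 of 16 members were tested, 0 were called and the median log2 change was 0.74. Eif4h and Eif4b encode helpers of the helicase eIF4A. Eif4h was at 10.5, 5.95 and 3.86 RPKM with HuR, against 1.78, 0.601 and 1.82 RPKM with IgG. Its groups did not overlap, and the log2 fold change was 1.91 (SE 0.78, limma adjusted p = 0.113). Its last exon (chromosome 5, 134619721 to 134621648) held 96.4%, 75.7% and 99.1% of its reads with HuR and 97.5%, 95.5% and 98.6% with IgG, so both antibodies returned the same end of this RNA.

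Eif4b was at 3.58, 5.27 and 4.01 RPKM with HuR, against 2.96, 1.30 and 0.0730 RPKM with IgG. The lowest HuR library was above the highest IgG library, with a log2 fold change of 1.63 (SE 0.80, limma adjusted p = 0.166). Its last exon (chromosome 15, 102095253 to 102097173) took 49.5%, 61.7% and 76.2% of its reads with HuR and 28.9%, 17.6% and 44.4% with IgG. An inner exon of 98 bases (102091397 to 102091494) stood at 44.9, 29.8 and 7.96 RPKM with HuR, against 0, 0 and 1.77 RPKM with IgG, and had p = 0.0123 and q = 0.541 in the authors' deposited table. That IgG 3 value rests on 5 reads.

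Scaffolds and repressors of the cap complex overlapped between groups. Eif4g1, the main scaffold, was at 9.37, 7.20 and 4.68 RPKM with HuR and at 6.21, 2.16 and 4.96 RPKM with IgG (log2 fold change 0.67, SE 0.82, limma adjusted p = 0.553). Eif4ebp2, a repressor that holds the cap-binding protein, was at 14.3, 13.6 and 5.19 RPKM with HuR and at 7.77, 2.13 and 3.56 RPKM with IgG (log2 fold change 1.25, SE 0.85, limma adjusted p = 0.301). In both, HuR 3 lay inside the IgG range. Eif4ebp2 reads lay almost wholly in the last exon, at 97.4%, 99.5% and 95.4% with HuR and 97.1%, 97.6% and 93.4% with IgG. Eif4e2, a cap-binding relative of eIF4E, was at 1.44, 1.26 and 0.538 RPKM with HuR and at 0.128, 0.0760 and 1.59 RPKM with IgG, where IgG 3 was the highest of the 6.

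Eif4e itself, the cap-binding protein, missed the filter, at 0.342, 0 and 0.745 RPKM with HuR and 0.264, 0.0615 and 0 RPKM with IgG. Eif4ebp1 was high in a single library, with 3.22, 0.0380 and 0.316 RPKM with HuR and 0.347, 1.22 and 0 RPKM with IgG. Eif4a3, the helicase of the exon junction complex, was at 0, 2.17 and 0.354 RPKM with HuR and 0, 0 and 0.0300 RPKM with IgG. For all 3, the lowest HuR library was at or below an IgG library.

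The 3 members with the highest mean levels, Eif4a1, Eif4a2 and Eif4g2, and Eif5 as well, are hosts of small RNA genes, and much of their reads lay in exons over those genes. Eif4a1 and Eif4a2 encode the eIF4A helicases, Eif4g2 a scaffold that lacks the cap-binding part, and Eif5 the factor that triggers GTP hydrolysis by eIF2. Exons listed for them reach over small nucleolar RNA (snoRNA) genes, whose products guide chemical changes of other RNAs, and reads of a snoRNA and of the exon around it cannot be told apart. Eif4a1 was at 49.9, 61.2 and 20.4 RPKM with HuR and at 177, 52.8 and 22.8 RPKM with IgG. Eif4a2 was at 41.7, 35.4 and 16.4 RPKM with HuR and at 316, 37.8 and 23.3 RPKM with IgG. In both, IgG 1 was the highest library and the groups overlapped.

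The share of reads in exons over small RNA genes was 89.4%, 96.0% and 88.4% for Eif4a1 with HuR and 98.4%, 99.8% and 93.8% with IgG. For Eif4a2 it was 100%, 91.7% and 85.4% with HuR and 99.6%, 99.2% and 95.03% with IgG. The log2 fold changes were -0.59 (SE 1.09) for Eif4a1 and -1.16 (SE 1.12) for Eif4a2, with limma adjusted p = 0.702 and 0.449. With those exons left out they were 1.39 and 0.33, and neither passed (limma adjusted p = 0.196 and 0.755). The sign of both changes thus depended on whether snoRNA-bearing exons were counted.

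Eif4g2 carries the snoRNA gene Gm23262. It was at 38.0, 50.9 and 15.2 RPKM with HuR, against 77.8, 5.11 and 5.16 RPKM with IgG (log2 fold change 1.21, SE 1.10, limma adjusted p = 0.422). HuR libraries lay above IgG 2 and 3 and below IgG 1. The exon over Gm23262 took 86.8%, 89.3% and 66.8% of its reads with HuR and 94.4%, 89.2% and 52.4% with IgG. Without that exon Eif4g2 stood at 5.16, 5.58 and 5.18 RPKM with HuR, against 4.44, 0.564 and 2.52 RPKM with IgG, and every HuR library was above every IgG library (log2 fold change 1.21, limma adjusted p = 0.246).

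**Figure D2:**
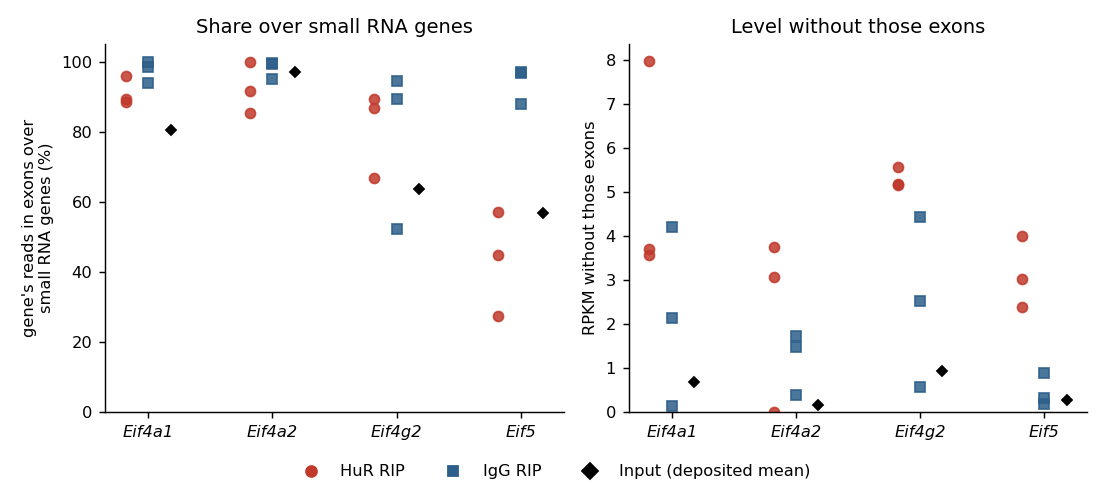
Left, share of each host gene's reads that lie in exons over small RNA genes (%); right, level in RPKM without those exons. Circles are the 3 HuR RIP libraries, squares the 3 IgG RIP libraries and diamonds the deposited Input mean; for Eif5 the HuR shares lie at 27.4% to 57.1% and the IgG shares at 87.9% to 97.0%, and its level without those exons is higher in every HuR library.

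Eif5 (chromosome 12, 111538016 to 111546752, plus strand) showed the clearest contrast between its parts. Over the whole gene it was at 6.08, 6.26 and 2.83 RPKM with HuR, against 25.9, 5.01 and 2.36 RPKM with IgG, overlapping groups with a log2 fold change of -0.50 (SE 0.90, limma adjusted p = 0.696). Exons over Snora28 took 57.1%, 44.8% and 27.4% of its reads with HuR and 97.0%, 96.6% and 87.9% with IgG, beside 56.9% in the Input mean. Without them Eif5 stood at 3.03, 4.01 and 2.38 RPKM with HuR, against 0.892, 0.198 and 0.331 RPKM with IgG. The groups were then apart, at a log2 fold change of 1.94 (SE 0.74), which missed the threshold (limma adjusted p = 0.0665).

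The last exon of Eif5 (111544529 to 111546752), which holds its 3′ UTR, was also apart between the groups. Its level was 7.64, 7.33 and 5.56 RPKM with HuR, against 1.05, 0.185 and 0 RPKM with IgG, with 0.297 RPKM in the Input mean. The remainder of the gene was at 5.33, 5.74 and 1.504 RPKM with HuR and at 37.9, 7.35 and 3.502 RPKM with IgG. In the authors' deposited table this exon had p = 0.00139 and q = 0.541 for HuR against IgG. The lowest q over all exons of that table was 0.110, and 0 exons had q under 0.05.

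A snoRNA of each kind found in these hosts is shown as an example. Snord2 is not where most Eif4a2 reads lay. The block 23110580 to 23111626, which does not hold Snord2, took 97.6%, 90.5% and 84.0% of them with HuR and 96.3%, 96.8% and 91.4% with IgG. That block holds Snora81, at 772, 432 and 210 RPKM with HuR and 4505.5, 530 and 272 RPKM with IgG, where the groups overlapped. Sequences are from GENCODE M21 transcripts, 5′ to 3′ in DNA letters. Capitals mark ACA within the last 8 bases of Snora28, as in snoRNAs that guide pseudouridylation, and the C box TGATG and D box CTGA of Snord2, as in snoRNAs that guide methylation.
Snora28, in Eif5, chr12:111540941-111541067, plus strand: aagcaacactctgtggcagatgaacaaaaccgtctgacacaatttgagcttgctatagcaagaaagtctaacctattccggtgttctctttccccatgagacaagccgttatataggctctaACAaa
Snord2, in Eif4a2, chr16:23108953-23109021, plus strand: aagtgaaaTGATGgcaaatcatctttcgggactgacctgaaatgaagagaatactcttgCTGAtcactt
Snora28 was at 93.0, 66.5 and 19.9 RPKM with HuR, against 658, 129 and 55.7 RPKM with IgG. Snord2 was at 11.3, 2.20 and 5.29 RPKM with HuR, against 185, 16.5 and 18.2 RPKM with IgG. Of these, Snord2 was lower in every HuR library than in every IgG library, while Snora28 overlapped through HuR 1 and 2 and IgG 3. IgG 1 was the highest library for both, and whether its small RNA content sets the host levels was not tested apart from the omissions given here.

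Eif1, Eif1a and Eif5b act around start-codon choice and subunit joining. With Eif5, 4 of 7 members of that group were tested, 0 were called and the median log2 change was 0.45. Eif5b, which joins the ribosomal subunits, was at 1.17, 1.76 and 0.881 RPKM with HuR, against 0.607, 0.107 and 0.00733 RPKM with IgG. Its groups did not overlap (log2 fold change 1.31, SE 0.58, limma adjusted p = 0.133). The leading block differed between HuR libraries. It was 38018865 to 38019534 in HuR 1, 38035993 to 38036273 in HuR 2 and 38021594 to 38021811 in HuR 3, with 53.3%, 30.6% and 26.3% of the reads. The block that led in HuR 1 also held 13.2% of the reads of HuR 2 and 24.1% of those of HuR 3. The blocks that led in HuR 2 and in HuR 3 held 0% of the reads of HuR 1. Eif1, which guards start-codon choice, was at 0.824, 1.09 and 1.17 RPKM with HuR and 1.17, 1.88 and 0.479 RPKM with IgG (log2 fold change -0.05, SE 0.68, limma adjusted p = 0.957), with the HuR values inside the IgG range.

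eIF2 brings the initiator tRNA, and its exchange factor eIF2B reloads it with GTP. Of 10 members 3 were tested, 0 were called and the median log2 change was 0.99. Eif2s3x, the X-linked gene of the gamma subunit, was at 3.002, 3.18 and 2.23 RPKM with HuR, against 0.961, 0.152 and 1.62 RPKM with IgG. Its groups did not overlap (log2 fold change 1.37, SE 0.75, limma adjusted p = 0.203), and 99.2%, 99.6% and 94.9% of its reads with HuR and 97.8%, 100% and 100% with IgG lay in the last exon (chromosome X, 94188707 to 94190922). Eif2b1 was at 1.10, 1.15 and 0.466 RPKM with HuR and 0.660, 0.0589 and 0 RPKM with IgG (log2 fold change 0.99, SE 0.54, limma adjusted p = 0.204), where HuR 3 was below IgG 1. All Eif2b1 reads of HuR 1 and 3 lay in its 3′ block (124570213 to 124571354), while all those of HuR 2 lay in an inner exon of 76 bases.

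The genes of the alpha and beta subunits, Eif2s1 and Eif2s2, missed the filter. Eif2s1, whose protein is the target of the eIF2 kinases, was at 2.14, 0 and 0.267 RPKM with HuR and at 0 in all IgG libraries. Eif2s2 was at 1.86, 0.173 and 0.748 RPKM with HuR and 0.430, 0 and 0.0158 RPKM with IgG. HuR 1 was the highest library for both, and HuR 2 had no more of either than some IgG library.

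Among the 4 eIF2 kinases, only Eif2ak2, the kinase switched on by double-stranded RNA, met the filter. It was at 0.992, 0.818 and 0.904 RPKM with HuR, against 0.190, 0.139 and 0.00402 RPKM with IgG. The HuR libraries differed little among themselves and lay well above all IgG libraries (log2 fold change 1.21, SE 0.50, limma adjusted p = 0.113). As its IgG libraries were all under 0.5 RPKM, it could pass the filter only through HuR, which also held for 1 other member, Eif3d. The last exon of Eif2ak2 (chromosome 17, 78852564 to 78855261) held 114, 93 and 97 reads with HuR, which were 100%, 100% and 92.4% of the gene's reads, against 38.5%, 100% and 0% with IgG. The gene had 13 and 16 reads in IgG 1 and 2 and at most 1 in IgG 3, so the IgG shares rest on few reads. The last exon, and not the whole gene, had p = 0.000874 and q = 0.541 in the authors' deposited table. The other kinases, Eif2ak1, Eif2ak3 and Eif2ak4, ranged over 0.0103 to 2.93 RPKM with HuR and 0 to 1.22 RPKM with IgG.

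eIF3 is the large complex that holds the small subunit to the mRNA. Of its 14 members 6 were tested, 0 were called and the median log2 change was 1.002. Eif3c was at 3.31, 1.89 and 1.32 RPKM with HuR, against 0.249, 0.728 and 0.0105 RPKM with IgG (log2 fold change 1.71, SE 0.67, limma adjusted p = 0.105). Eif3d was at 1.59, 1.31 and 0.583 RPKM with HuR, against 0.198, 0.0858 and 0.123 RPKM with IgG (log2 fold change 1.34, SE 0.54, limma adjusted p = 0.110). In both, all HuR libraries were above all IgG libraries.

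The leading exons differed between HuR libraries in part. For Eif3c, 1 exon (chromosome 7, 126547185 to 126547347) held 289 of the 290 reads in HuR 1, or 99.7%, and 0 reads in every other library. HuR 2 led with 126563627 to 126563752, which held 32.9% of its reads, and HuR 3 with 126564416 to 126564605, which held 59.8% of the reads of HuR 3 and 32.3% of those of HuR 2. For Eif3d, 1 block (chromosome 15, 77967303 to 77968589) held 94.3% of the reads of HuR 2 and 0 in HuR 1, whose reads lay to 93.9% in 77959954 to 77960481. That block also led in HuR 3, with 29.1% of its reads, and in IgG 1, with 66.2%. For each gene, then, at least 1 HuR library had almost all its reads in a block where at least 1 other HuR library had none.

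Eif3a, the gene of the largest subunit, was at 3.70, 22.7 and 8.35 RPKM with HuR and at 4.85, 1.82 and 3.13 RPKM with IgG (log2 fold change 1.42, SE 0.86, limma adjusted p = 0.247). HuR 2 was far above the rest and HuR 1 lay within the IgG range. Eif3b, a scaffold subunit, was at 0.394, 0.785 and 0.481 RPKM with HuR and 3.23, 0.509 and 1.91 RPKM with IgG, the lowest log2 change among members with no small RNA gene in their exons (-1.004, SE 0.70, limma adjusted p = 0.307). Among untested subunits, Eif3i was even within each group, at 0.519, 0.481 and 0.513 RPKM with HuR against 0.0181, 0.0108 and 0.00998 RPKM with IgG, and just missed the filter. Eif3e was at 0.394, 0 and 0.148 RPKM with HuR and 0.190, 0 and 0 RPKM with IgG.

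Of the 7 elongation factors 4 were tested, 0 were called and the median log2 change was 0.69. Eef1a1 brings aminoacyl-tRNAs to the ribosome and Eef2 moves the ribosome on. Eef1a1 was at 13.4, 34.7 and 13.3 RPKM with HuR and at 14.4, 6.81 and 2.50 RPKM with IgG (log2 fold change 1.46, SE 0.92, limma adjusted p = 0.268). Eef2 was at 22.6, 12.9 and 10.8 RPKM with HuR and 20.2, 6.75 and 4.41 RPKM with IgG (log2 fold change 0.75, SE 0.91, limma adjusted p = 0.551). In both, IgG 1 lay within the HuR range and IgG 2 and 3 below it. Eef1a1 has many near-identical processed copies, among which reads may have been split.

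Of the partners that reload Eef1a1, Eef1b2 was at 1.34, 1.79 and 0.895 RPKM with HuR and 1.07, 1.30 and 0.0678 RPKM with IgG (log2 fold change 0.62, SE 0.69, limma adjusted p = 0.513). Eef1g was at 1.24, 3.73 and 2.38 RPKM with HuR and 2.90, 2.41 and 2.15 RPKM with IgG (log2 fold change -0.10, SE 0.76, limma adjusted p = 0.925). Groups overlapped for both. Eef1a2, the relative used in muscle and neurons, was at 0 in all HuR libraries and at 0.165, 0 and 0.0606 RPKM with IgG. The 5 modifiers of elongation factors, Eef2k and 4 methyltransferases, all missed the filter and ranged over 0 to 0.511 RPKM. Eif6, which keeps ribosomal subunits apart, also missed it, at 0, 0.0444 and 0.173 RPKM with HuR and 0.269, 0.131 and 1.35 RPKM with IgG.

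**Figure D3:**
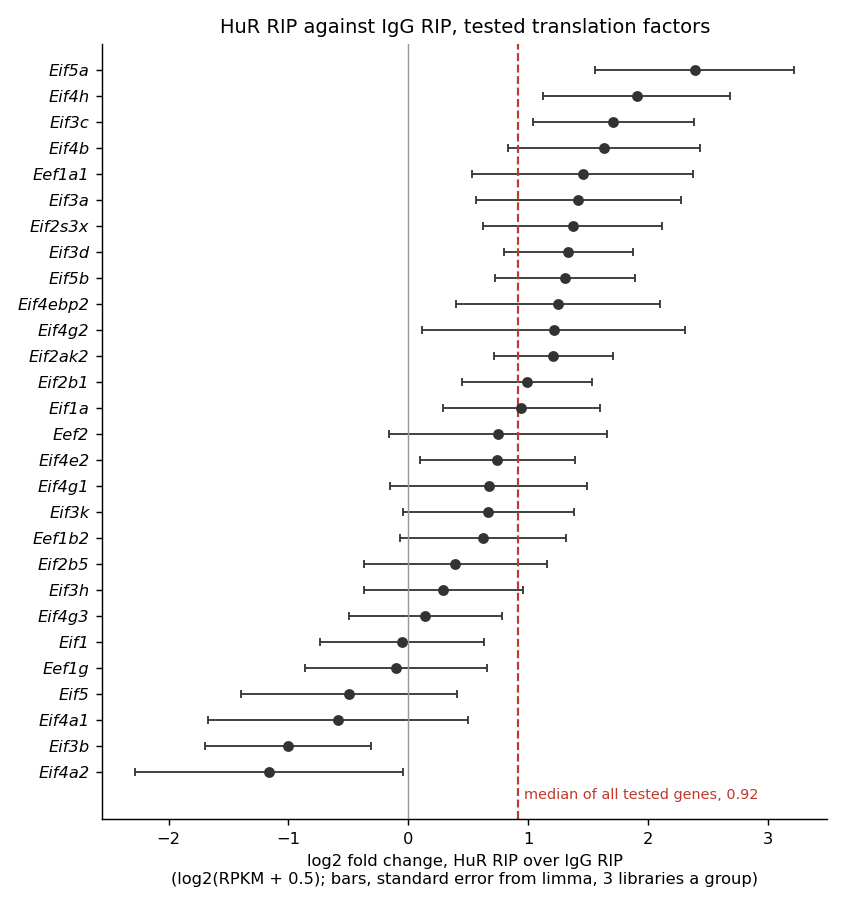
Log2 fold change of HuR RIP over IgG RIP for the 28 tested translation factors, with bars of 1 standard error from limma (3 libraries a group), sorted from high to low. The dashed line is the median of all tested genes, 0.92; 14 members lie above it, Eif5a is highest at 2.39 and Eif4a2 lowest at -1.16.

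The 38 members under the filter reached at most 3.22 RPKM in a single library. For 5 of them, Eif1b, Eif2ak4, Eif3i, Eif3m and Eif4e3, all HuR libraries were above all IgG libraries (13.2%), beside 7.18% of the 28222 genes under the filter, and the reverse held for 0, beside 0.585%. Eif2ak4 rests on 1 read in each HuR library and 0 in each IgG library, and Eif3m on at most 7.4 reads in any library. Eif4e1b and Eif5a2 were listed at 0 in all 6 pull-down libraries and in the Input mean. Genes at 0 in all pull-down libraries cannot part the groups, yet they are counted in both shares. A value above 0 in some pull-down library was seen for 64 of the 66 members and for 28263 of the 33732 gene names. The shares are thus over unlike sets. The number of members at 0.5 RPKM or more was 39, 31 and 31 with HuR and 30, 20 and 19 with IgG. Over all listed genes those numbers were 7320, 7854 and 6999 with HuR and 6507, 2788 and 3076 with IgG, so IgG 1 was the nearest of its group to the HuR libraries in both.

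Against the Input mean, 24 of the 28 tested members (85.7%) were higher in all 3 HuR libraries, beside 68.9% of all tested genes. In the IgG libraries 11 of the 28 (39.3%) were higher in all 3, beside 20.7%. The median log2 difference from Input was 1.35 for the members and 1.22 for all tested genes with HuR, and 0.40 and 0.24 with IgG. Both comparisons use the same Input mean, and no test was possible because it has no replicates. Genes were kept by their level in the pull-down libraries and not in Input. That filter by itself favours values above Input, for the members and for all tested genes alike. These shares and medians are therefore no measure of enrichment by the pull-down. The 4 members not above Input in every HuR library were Eif1, Eif3b, Eif3h and Eif3k.

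HuR RIP was also compared with IgG RIP by where in a gene the reads lay. The share of reads in the last exon was computed for genes of at least 3 exons with at least 10 reads in every pull-down library, which left 19 members. All HuR libraries exceeded all IgG libraries for 2 of them (10.5%), beside 26.9% of 1639 genes, and the reverse held for 0, beside 0.793%. The members' median difference was 5.24 percentage points, beside 16.4 points over all 1639 genes. With the transcript that ends most 3-prime, in place of the longest, it was 3.08 points, beside 15.6 points. The snoRNA hosts are among the 19, and reads over a snoRNA lower the share of the last exon.

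The 2 were Eif5 and Eif4g3, the second scaffold gene. For Eif5 the last exon took 41.0%, 38.2% and 64.2% of the reads with HuR, against 1.3%, 1.2% and 0% with IgG. For Eif4g3 (last exon on chromosome 4, 138205973 to 138208508) it took 68.2%, 34.2% and 45.7% with HuR, against 2.1%, 5.5% and 3.9% with IgG. Both were picked because their groups did not overlap, which by itself fixes the exact two-sided permutation p at 0.1. That is the smallest p that 3 against 3 libraries allow, so it adds no support. Gene level did not part the groups of Eif4g3, which was at 1.08, 0.779 and 0.784 RPKM with HuR and 1.23, 0.346 and 0.820 RPKM with IgG. Its last exon was at 2.86, 1.03 and 1.39 RPKM with HuR, against 0.09997, 0.0740 and 0.123 RPKM with IgG, and the remainder at 0.462, 0.690 and 0.574 RPKM with HuR and 1.62, 0.441 and 1.06 RPKM with IgG.

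**Figure D4:**
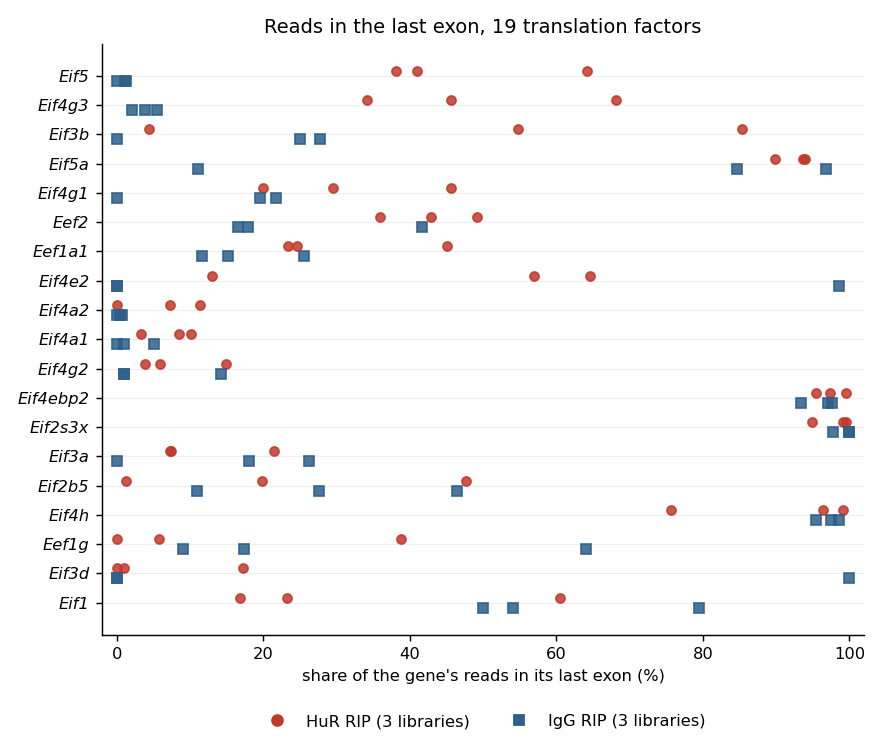
Share of a gene's reads in its last exon (%) for 19 translation factors, with circles for the 3 HuR RIP libraries and squares for the 3 IgG RIP libraries, sorted by the difference of the means. The groups are apart only for Eif5 and Eif4g3, and several genes spread over most of the axis within a group.

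How far the libraries of a group shared exons was counted over the same kind of genes, those with at least 3 exon blocks and at least 10 reads in every pull-down library. The block with most reads was the same in all 3 HuR libraries for 10 of 19 members (52.6%), beside 66.2% of 1646 genes. It was the same in all 3 IgG libraries for 9 (47.4%), beside 42.2%, and the same in all 6 for 6 members (31.6%), beside 35.0%. Eif4a2 and Eif4g2 are among those 6, and Eif5 is among those 9. The shared block of each lies over snoRNA genes. The leading block held a median of 68.2%, 68.7% and 66.8% of a member's reads with HuR and 80.0%, 84.9% and 91.4% with IgG. Over all 1646 genes it held 86.4%, 74.5% and 86.7% with HuR and 60.7%, 58.9% and 93.3% with IgG, so the members' medians were lower than those of all genes with HuR and higher in IgG 1 and 2. Reads without molecular identifiers are not independent molecules, so a block led by a single library may rest on few RNA fragments.

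Of 53 other translation genes listed by role (poly(A) binding, termination, cap signalling, stress response, protein modification, mitochondrial factors, reinitiation and selenocysteine), 52 were in the table and 19 met the filter. limma called 0 higher and 0 lower, and their median log2 change was 1.21, beside 0.92 over all tested genes. The smallest p belonged to Paip1, a partner of poly(A)-binding protein, at 1.97, 0.963 and 1.19 RPKM with HuR, against 0.214, 0.0464 and 0.0107 RPKM with IgG (log2 fold change 1.65, limma adjusted p = 0.0790). It was followed by Ppp1r15b, which guides a phosphatase to eIF2 (2.26, limma adjusted p = 0.0961), Abce1, which recycles ribosomes (1.64, 0.0981), and Pabpc1, the main cytoplasmic poly(A)-binding protein (2.01, 0.0984). All 4 had every HuR library above every IgG library, as did 31.3% of all tested genes. They were picked by their p on these same values, so this adds no support.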

How the data were processed

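RNA from HuR RIP, IgG RIP and Input was sequenced from mouse liver with the Ion Total RNA-Seq Kit v2, per the labels' protocols. Per the submitters' processing notes, Bowtie2, featureCounts and mm10 were used. Versions, the use of strand in counting and the authors' test were not given in the sources used here. Reads of genes that overlap on opposite strands may therefore be mixed. The deposited table holds RPKM per exon by the authors for each pull-down library and as 1 mean for Input. It also holds log2 fold columns of the authors over Input, and a p-value and a q-value (deposited, per exon). In the deposited RPKM and log2 columns, values from 1 upward lacked the decimal point. They were restored from their digits and the 6 fold columns, and all 138826 distinct lines of values matched in all of them (1 line had more than 1 possible reading, none of a member).

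Exon RPKM times exon length was summed per gene and divided by the merged exon length, since reads had been split between overlapping exons. Whole reads (tolerance 0.05 of a read) were recovered for 84.7% to 89.0% of gene totals. No count model was run on these split reads. Library sizes of 15.9 to 28.8 M reads (M, mega) come from the fixed step between values; the depth of Input is unknown. Of the listed exons, 99.3% had the same coordinates in GENCODE M21 (GRCm38), which gave positions, last exons and small RNA genes on the same strand.

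limma 3.58.1 in R 4.3.3 (trend and robust moderation) compared HuR RIP with IgG RIP on all 5510 genes kept. The code was tested on simulated data. Values against Input have no test. Last-exon shares used an exact permutation test over libraries (Python 3.11.15). Nothing in the sources says beyond a single liver per pull-down whether livers were independent of each other, so p-values measure the spread between these samples. Named members were the 10 with the smallest p, any past the threshold and a fixed set of core factors; other tested members may be named with their level. The members and lists were chosen with earlier results of these data known. Alternatives were other scalings, filters and pseudocounts, no trend, the replicate number as a block, each library left out, HuR 3 and IgG 1 both left out, exons over small RNA genes left out, distinct exons only and protein-coding genes only.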

Additional observations from a re-analysis of the deposited data

How the results depend on the processing

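In every setting the number of translation factors called lower was 0, and the number called higher was 0 or 1. It was 1, Eif5a each time, without IgG 1, with exons over small RNA genes left out (1) and among protein-coding genes only (1), so that leaving out single libraries gave 0 to 1. Over all genes, those 3 settings called 724 of 5510, 464 of 4751 and 728 of 3943 higher, in the same order. The members' median log2 change ranged over 0.70 to 1.35 when single libraries were left out. It was -0.25 with libraries centred at the median, 0.064 with TMM-like scaling, 1.30 with a pseudocount of 0.1, 1.36 when both HuR 3 and IgG 1 were dropped, and -0.10 with small RNA exons left out and libraries centred, an alternative chosen after seeing the data. The members' median minus that of all genes was -0.072, and ranged over -0.11 to 0.11 when single libraries were left out. It was 0.40 with no filter, -0.32 with a filter at 1 RPKM, -0.24 with TMM-like scaling, -0.23 among protein-coding genes only and -0.17 with a pseudocount of 0.1.

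The counts over all genes depended on the setting far more. Genes called higher and lower were 1 and 18 with centring, 0 and 0 with no filter, 145 and 21 with a filter at 1 RPKM, 3 and 1 with a pseudocount of 1, 4 and 1 without the trend, 0 and 0 when both HuR 3 and IgG 1 were dropped, 464 and 14 without small RNA exons, 0 and 0 with distinct exons only, 728 and 8 among protein-coding genes only, 49 and 189 with TMM-like scaling, and 1 and 10 with small RNA exons left out and centring. Leaving out single libraries gave 0 to 724 higher and 0 to 35 lower. The cause was not tested.

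With the replicate number as a block, 0 genes were called higher and 0 lower (1665 and 238 at an unadjusted p under 0.05), also with the numbers of HuR 2 and HuR 3 exchanged (0 and 0; chosen after seeing the data). No member's call changed. Same-numbered libraries correlated at 0.14, 0.12 and 0.09 in their deviations, each best with its own number, which is a hint from the data; the labels do not say that the numbers pair livers.

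Log2 changes of several members changed sign with the scaling, and not only those near 0. Among them were Eif2b1, at 0.99 in the main setting, and Eif1a, at 0.94. With centring these were Eef1b2 (-0.48), Eef2 (-0.35), Eif1a (-0.16), Eif2b1 (-0.11), Eif2b5 (-0.71), Eif3h (-0.81), Eif3k (-0.43), Eif4e2 (-0.36), Eif4g1 (-0.43) and Eif4g3 (-0.96). With TMM-like scaling they were Eef1b2 (-0.10), Eef2 (-0.44), Eif2b5 (-0.55), Eif3h (-0.33), Eif4e2 (-0.022), Eif4g1 (-0.47) and Eif4g3 (-0.60). Without small RNA exons Eif4a1 (1.39), Eif4a2 (0.33) and Eif5 (1.94) turned positive, and the same 3 did when both HuR 3 and IgG 1 were dropped (0.66, 0.37 and 0.75). Without small RNA exons and with centring the values were Eef1b2 -0.58, Eef2 -0.45, Eif1a -0.25, Eif2b1 -0.21, Eif2b5 -0.81, Eif3h -0.91, Eif3k -0.53, Eif4a1 0.20, Eif4e2 -0.46, Eif4g1 -0.53, Eif4g3 -1.06 and Eif5 0.74. Eef1g was at 0.0067 with distinct exons only. Leaving out single libraries turned Eef1g (-0.41 to 0.23), Eif1 (-0.39 to 0.25), Eif2b5 (-0.019 to 0.97), Eif3h (-0.20 to 0.77), Eif3k (-0.066 to 1.36), Eif4a1 (-1.28 to 0.19), Eif4g3 (-0.14 to 0.38) and Eif5 (-1.19 to 0.41). For 13 members the sign held in every setting in which they were tested.

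The number of members above Input in all HuR libraries was 24, and 24 to 27 when 1 HuR library was left out. Their median difference from Input was 2.15 with a pseudocount of 0.1 and 0.98 with a pseudocount of 1. With the transcript that ends most 3-prime, the count of members with a higher last-exon share in every HuR library was again 2 and the values of Eif5 and Eif4g3 were the same, while the members' median difference was 3.08 points in place of 5.24. Of the 38 members under the filter, some rest on few reads (Eif2ak4, 1 in each HuR library) and others had many in a single library (Eif2ak1, 413 in HuR 1, and 61 and 28.8 in HuR 2 and 3). Whether depth set which members met the filter was not tested, and intervals from reads would cover counting error only.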

Other observations

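The names left out of the members showed no common pattern. Eif2s3y, the chromosome Y copy of the eIF2 gamma gene, was at 1.40, 0 and 0.868 RPKM with HuR and at 0.537, 0.247 and 0 RPKM with IgG. Eif3s6-ps1 was at 3.84, 0.485 and 0 RPKM with HuR and 0.403, 0 and 0 RPKM with IgG, and Eif4a-ps4 at 0.0617, 0 and 2.35 RPKM with HuR and 1.35, 1.72 and 14.7 RPKM with IgG.

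The 2 member exons with the lowest q in the authors' deposited table, 0.110, were an exon of Eif2ak4 (chromosome 2, 118412346 to 118413083) and one of Eif2a (chromosome 3, 58548393 to 58550726). Each held 1 read in every HuR library and 0 in every IgG library, so 1 read per library was enough for the lowest q there. The last exon of Eif5, with a q of 0.541, held 137, 138 and 98.7 reads as listed with HuR, against 12.3, 1.83 and 0 with IgG.

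Exons of Eef1a1 and Gm26377, annotated as a microRNA gene, overlap in the last exon. Gm26377 was at 67.8, 81.5 and 37.1 RPKM with HuR, against 12.7, 5.73 and 1.28 RPKM with IgG, with no overlap between groups, while Eef1a1 as a whole gene overlapped. These reads cannot be told apart from those of the Eef1a1 mRNA.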
